A study of Homo sapiens with 18 samples.

Results

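The integrins and laminins are the receptors and the basement membrane ligands through which cells grip their matrix. Their genes were taken as every row of the deposited gene counts whose symbol names an integrin alpha subunit, an integrin beta subunit or a laminin chain. This rule gave 38 of 57133 genes, made up of 26 integrin genes and 12 laminin genes, without use of any measured value. RNA-seq was performed on PGP1 cells, an established human induced pluripotent stem cell (PSC) line grown on Matrigel in mTeSR1 medium. The groups were unedited wild-type cells (WT, 2 libraries) and PCGF6-KO cells from 2 clones (clone 1 and clone 2, 2 libraries each), in which CRISPR-Cas9 with paired guide RNAs had removed part of PCGF6, a subunit of a polycomb repressive complex. The labels name no other treatment for any group. Each clone is 1 edited line, with its own deletion. No source used here states that the libraries of a group came from separate cultures. The p-values below therefore measure the spread between libraries, which may be technical. Where both clones form 1 PCGF6-KO group, that spread also holds the difference between the clones. With 1 WT line and 2 edited lines, the edit and variation between lines cannot be told apart.

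An integrin is a pair of one alpha and one beta subunit that spans the cell membrane, with the matrix outside and the talin, kindlin and actin machinery inside. The alpha subunit largely sets the ligand: ITGA3, ITGA6 and ITGA7 recognise laminins, ITGA5, ITGAV, ITGA8 and ITGA2B recognise ligands that carry the RGD motif, such as fibronectin and vitronectin, and ITGA1, ITGA2, ITGA10 and ITGA11 recognise collagens. A laminin is a trimer of one alpha, one beta and one gamma chain that polymerises into the basement membrane. Human PSCs attach to laminin-rich substrates such as Matrigel mainly through ITGA6 paired with ITGB1, and they secrete laminins that contain LAMA5. Expression of fibronectin receptors and of new matrix is a known feature of cells that leave the pluripotent epithelium for the primitive streak.

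The libraries held between 15877396 and 18918609 counts, of which the integrin and laminin genes took between 0.237 and 0.384%. PCGF6 itself had 268 and 300 counts in the WT libraries, 99 and 103 for clone 1, and 187 and 159 for clone 2, below WT in every PCGF6-KO library (log2 fold change −1.15 ± 0.27, SE, adjusted p = 0.00914, quasi-likelihood test of edgeR). That call was lost without WT replicate 1 (−1.22, edgeR adjusted p = 0.0511) or WT replicate 2 (−1.09, edgeR adjusted p = 0.0763). The pluripotency markers, among them POU5F1, NANOG and LIN28A, summed to between 6643 and 6882 counts scaled to the library total (CPM) in WT and between 6329 and 7016 CPM in PCGF6-KO. Of the 8 genes of that list 1 was called, SOX2, which was lower in PCGF6-KO (log2 fold change −0.69 ± 0.19, SE, edgeR adjusted p = 0.0178, with −0.41 in clone 1 and −1.04 in clone 2). Of all 17672 tested genes, 8.7% were called as lower and 6556 had an edgeR adjusted p under 0.05. The sum of the list hides smaller shifts in both directions, and 5 of its 8 genes had an edgeR adjusted p under 0.05. Beside SOX2 these were LIN28A (−0.29) and DPPA4 (−0.44), which were lower, and NANOG (0.40) and PODXL (0.44), which were higher. Primitive streak markers such as MIXL1, EOMES and TBXT summed to 15.7 and 16.1 CPM in WT and to between 719 and 872 CPM in PCGF6-KO. Where 14.9% of all tested genes were called as higher, 7 of 7 tested genes of that list were. Some of these were near absence in WT (TBXT 0 and 12 counts, EOMES 3 and 5, GSC 1 and 1). They passed the filter on low counts through the PCGF6-KO libraries, so a difference was built into their being tested. Fibroblast and mesenchyme markers summed to between 854 and 865 CPM in WT and between 1761 and 2095 CPM in PCGF6-KO. Of that list 7 of 8 were higher and THY1 was lower, where 14.9% of all tested genes were called as higher and 8.7% as lower. No marker of the list was at 0 in every library. The part of such cells in the results below was not tested. In bulk samples such as these a change in the share of cells of one type cannot be told apart from a change in RNA per cell.

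In WT cells 1 gene led each subunit family. Levels between genes are given as CPM, scaled by edgeR's TMM factors, per kilobase of the gene length deposited beside the counts. Among the alpha subunits ITGA6, the laminin receptor subunit, was highest at 30.8 ± 0.68 (SD, n = 2), ahead of ITGA7 at 10.3 ± 0.177, ITGAV at 8.05 ± 0.56 and ITGA5 at 6.17 ± 0.272. Each neighbour in this order differed by more than the SD of either. Among the beta subunits ITGB1, the common partner of most alpha subunits, stood at 87.3 ± 1.03 and ITGB5, a partner of ITGAV, at 58.5 ± 0.297. The laminin chains were led by LAMA5 at 15.6 ± 0.183, LAMB1 at 18.3 ± 0.521 and LAMC1 at 35.2 ± 1.63, which are chains of the same trimer. LAMA1, the alpha chain of the early embryonic basement membrane, was at 6.04 ± 0.365 and LAMB2 at 13.02 ± 0.211 in WT.

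**Figure D1:**
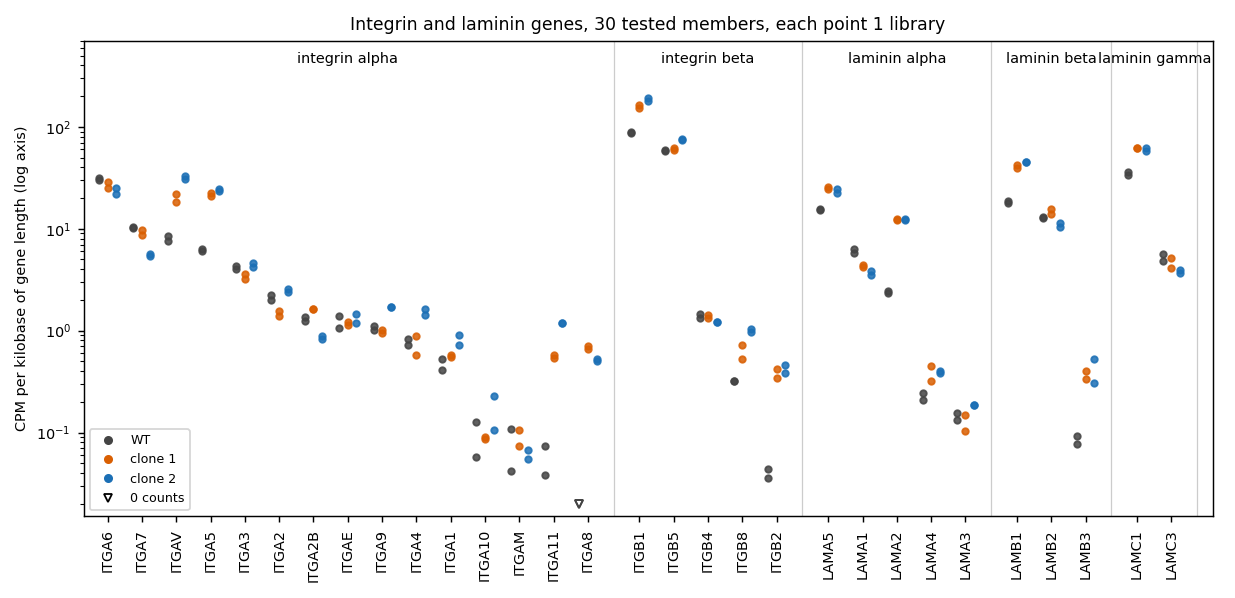
The level of 30 integrin and laminin genes (CPM per kilobase, log axis) in each library, with genes ordered by their WT mean within a family, and 1 point for each WT (grey), clone 1 (orange) and clone 2 (blue) library. ITGA5, ITGAV, ITGB1, LAMA2, LAMB1 and LAMC1 lie higher in all 4 PCGF6-KO libraries than in either WT library, ITGA6 and LAMA1 lie lower, and the open triangle marks the 0 counts of ITGA8 in both WT libraries.

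Low counts limited the rest of the family. Of the 38 genes, 31 passed the low-count filter of edgeR, and ITGB3, ITGB6, ITGB7, ITGAD, ITGAL, ITGAX and LAMB4 did not, with at most 9 counts in any library. ITGB3, ITGB6 and ITGAD had 0 counts in both WT libraries, where 3 counts are the limit that a count of 0 allows. ITGA8, ITGA11, ITGB2, LAMB3, ITGA10 and ITGAM had at most 13 counts in either WT library. The first 4 of these passed the filter through the PCGF6-KO libraries, so a difference was built into their being tested, and counts and medians below that include them are descriptions of the genes that passed. Limits of this kind cover counting error only.

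The sequences before the start sites are shown for 4 genes that were higher in PCGF6-KO (ITGB1, ITGA5, LAMC1 and LAMA2) and for ITGA6, which was not, because these genes carry the receptor and ligand differences described below. Each is the 250 bases before a RefSeq transcript start (GRCh38.p14), written 5′ to 3′ on the strand of the gene: ITGB1 chr10:32958231-32958480 (reverse), ITGA5 chr12:54419267-54419516 (reverse), LAMC1 chr1:183023170-183023419 (forward), LAMA2 chr6:128882888-128883137 (forward) and ITGA6 chr2:172427086-172427335 (forward). Capitals mark the letters of 4 motifs searched on both strands, which are the E-box CACGTG bound by MYC-MAX and MGA-MAX, the E2F6-type GCGGGAA, the core CTTTGA of TCF/LEF sites and the GC box GGGCGG of SP factors.
ITGB1: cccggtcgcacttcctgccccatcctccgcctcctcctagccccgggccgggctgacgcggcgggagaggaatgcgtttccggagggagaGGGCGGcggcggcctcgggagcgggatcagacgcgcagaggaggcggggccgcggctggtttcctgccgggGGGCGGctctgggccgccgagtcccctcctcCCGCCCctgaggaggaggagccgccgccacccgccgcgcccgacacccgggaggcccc
ITGA5: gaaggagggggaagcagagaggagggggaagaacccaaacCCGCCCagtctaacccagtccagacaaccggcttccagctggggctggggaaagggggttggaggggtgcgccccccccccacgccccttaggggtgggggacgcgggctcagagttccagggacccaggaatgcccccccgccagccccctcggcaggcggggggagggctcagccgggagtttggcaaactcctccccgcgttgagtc
LAMC1: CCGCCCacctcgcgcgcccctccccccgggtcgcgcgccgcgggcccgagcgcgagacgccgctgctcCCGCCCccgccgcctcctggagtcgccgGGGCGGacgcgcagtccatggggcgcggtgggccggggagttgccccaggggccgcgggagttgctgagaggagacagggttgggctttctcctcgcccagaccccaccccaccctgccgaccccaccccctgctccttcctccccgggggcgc
LAMA2: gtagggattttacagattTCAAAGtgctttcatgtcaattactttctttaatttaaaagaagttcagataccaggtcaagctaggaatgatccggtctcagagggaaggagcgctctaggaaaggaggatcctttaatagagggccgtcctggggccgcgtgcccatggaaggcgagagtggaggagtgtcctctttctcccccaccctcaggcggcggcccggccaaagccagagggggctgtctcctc
ITGA6: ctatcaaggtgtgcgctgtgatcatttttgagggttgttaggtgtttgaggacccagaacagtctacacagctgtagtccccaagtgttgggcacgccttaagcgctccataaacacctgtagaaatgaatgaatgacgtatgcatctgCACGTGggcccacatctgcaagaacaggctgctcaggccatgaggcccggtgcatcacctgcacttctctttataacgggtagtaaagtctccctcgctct

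In these windows GGGCGG occurred in the GC-rich ITGB1 and LAMC1 promoters (GC content 78.4 and 79.6%) and in that of ITGA5 (70.0%), CTTTGA occurred once in LAMA2, 232 bases before its start, and CACGTG occurred once in ITGA6, 101 bases before its start. Another RefSeq start of ITGA6, 250 bases downstream, had GGGCGG 3 times in its window. The window of a further ITGB1 start (chr10:32935559-32935808, reverse) had a GC content of 41.6% and none of the motifs. RefSeq promoters were matched for 26 of the 38 genes, with 33 start sites in all. Over these 33, CACGTG was found in 1 (3.03%), against 6.34% of all 35116 RefSeq promoters of the same length. GCGGGAA was found in 0 of 33, against 5.52% of all. CTTTGA was found in 5 (15.2%, against 11.2% of all) and GGGCGG in 17 (51.5%, against 42.6% of all). Over the 17464 promoters of tested genes the shares were 7.90% for CACGTG, 7.80% for GCGGGAA, 8.31% for CTTTGA and 61.0% for GGGCGG, so that GGGCGG lay above the share of all promoters and below that of the tested genes. GGGCGG and GCGGGAA can share letters, and the latter was not found here. A match describes letters in a window and not a bound site.

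PCGF6-KO cells had higher RNA of the RGD-binding subunits ITGA5, ITGAV and ITGA8, of ITGB1 and of the main laminin trimer. No laminin-binding alpha subunit passed with all libraries in the fit, and neither did ITGA4 and ITGA9, which bind fibronectin splice forms. In clone 2 alone, ITGA4 and ITGA9 passed as higher and ITGA7 as lower. These groups are too small for a lack of calls to be set apart from the share over all tested genes given below. ITGB1 belongs to both RGD-binding and laminin-binding receptors, since it also pairs with ITGA6. A gene was called where its adjusted p was under 0.05 and its log2 fold change exceeded 0.6 in size. By this rule 14 of the 31 tested genes were higher in PCGF6-KO than in WT, 0 were lower by edgeR and 17 did not pass. At an unadjusted p under 0.05, 3 were lower (ITGA6, LAMA1 and LAMC3), and by DESeq2 1 was (LAMA1). With 1 library left out, LAMA1 passed as lower without WT replicate 1 (−0.66), clone 1 replicate 1 (−0.62) or clone 1 replicate 2 (−0.63), and ITGA7 without clone 1 replicate 1 (−0.64, edgeR adjusted p = 0.0274). Of all 17672 tested genes, 23.6% passed in either direction, 14.9% as higher and 8.7% as lower. The median log2 fold change was 0.53 over the 31 genes and 0.00 over all tested genes. Of the 25 genes that reached 10 counts in all 6 libraries, 10 were higher. With the same minimum applied to all genes, 1847 of 14850 passed as higher and 3110 in either direction. The laminins had 7 of 11 tested genes higher (median 0.79) and the integrins 7 of 20 (median 0.40). Within the integrins, 3 of 4 RGD-binding alpha subunits were higher, against 1 of 4 collagen-binding, 0 of 3 laminin-binding and 0 of 2 tested leukocyte alpha subunits. ITGA8 and ITGA11 are among those higher and passed the low-count filter through the PCGF6-KO libraries. Their calls therefore do not bear on a comparison of these groups, which are also too small to compare. In 16 genes every PCGF6-KO library lay above both WT libraries and in 3 every one lay below, where 57.1% of all tested genes had groups that did not overlap (29.5% above and 27.6% below).

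The 4 PCGF6-KO libraries entered this test as 1 group, although they come from 2 clones. A gene on which the clones differ therefore has a wider SE here. For ITGA7 the SE was 0.22 in this test and 0.07 in the fit for the mean of the clones. Its size in that fit (−0.54) still fell short of the threshold. Because the annotation's strand setting is not given in the sources used here, counts of genes that overlap another on the opposite strand are uncertain, and 30 of the 38 genes overlap at least 1 gene in GENCODE release 44.

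ITGA5, the alpha subunit of the main fibronectin receptor (GRCh38, chromosome 12, 54395261 to 54419266, reverse strand), had 5.98 and 6.37 CPM per kilobase in the WT libraries, 22.3 and 20.9 for clone 1, and 24.6 and 23.6 for clone 2. All 4 PCGF6-KO libraries lay above WT by more than the spread, a 3.7-fold difference in the fit (log2 fold change 1.89 ± 0.09, SE, edgeR adjusted p = 8.05e-07). ITGAV, the alpha subunit of vitronectin and latent TGF-beta receptors (chromosome 2, 186590010 to 186680901, forward strand), had 7.65 and 8.44 in the WT libraries, 18.5 and 22.1 for clone 1, and 30.6 and 33.3 for clone 2. The groups did not overlap, and clone 2 was above clone 1 (PCGF6-KO against WT 1.70 ± 0.23, edgeR adjusted p = 0.000476). ITGB1 (chromosome 10, 32887273 to 33005792, reverse strand) had 86.6 and 88 in the WT libraries, 155 and 163 for clone 1, and 178 and 194 for clone 2. It was 1.97-fold higher in PCGF6-KO (0.98 ± 0.09, edgeR adjusted p = 5.9e-05), so the subunit with the highest level of all 38 in WT was also among those that rose.

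ITGB8, which pairs with ITGAV and releases TGF-beta from its latent complex, had 79 and 81 counts in the WT libraries, 152 and 201 for clone 1, and 268 and 252 for clone 2. It was 2.54-fold higher in PCGF6-KO (log2 fold change 1.35 ± 0.28, SE, edgeR adjusted p = 0.00495), with no overlap between the groups. ITGB5, another partner of ITGAV and the beta subunit with the second level in WT, had 58.2 and 58.7 CPM per kilobase in the WT libraries, 62.1 and 58.8 for clone 1, and 76.1 and 74.9 for clone 2. The difference did not pass in PCGF6-KO as a whole (0.22 ± 0.11, edgeR adjusted p = 0.153). ITGA2B, a platelet subunit that also binds RGD ligands, had between 116 and 124 counts in WT, and clone 1 (174 and 163) and clone 2 (83 and 79) lay on opposite sides of it. Its usual partner ITGB3 had no WT counts and 7, 0, 4 and 0 in the PCGF6-KO libraries, and of the platelet markers GP9 was at 0 in every library and the summed level was between 2.31 and 3.42 CPM in all 6 libraries.

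Among genes near absence in WT, ITGA8, a receptor subunit for nephronectin in the embryonic mesenchyme, had 0 counts in both WT libraries, 94 and 97 in clone 1, and 69 and 64 in clone 2. Against a floor of 3 counts per WT library it was at least 24.8-fold higher in PCGF6-KO (edgeR adjusted p = 2.03e-05), at least 28.2-fold in clone 1 and at least 21.4-fold in clone 2. ITGA11, a fibrillar collagen receptor subunit typical of fibroblasts, had 13 and 7 counts in the WT libraries, 121 and 106 for clone 1, and 234 and 208 for clone 2. It was 15.4-fold higher (log2 fold change 3.95 ± 0.52, SE, edgeR adjusted p = 0.00043), with every PCGF6-KO library above WT and clone 2 above clone 1. ITGB2, the beta subunit of leukocyte integrins, had 4 and 5 counts in the WT libraries, 55 and 42 for clone 1, and 57 and 42 for clone 2 (3.29 ± 0.34, edgeR adjusted p = 9e-05). Its alpha partners stayed low, with at most 11 counts of ITGAM, 5 of ITGAL and 7 of ITGAX in any library. The leukocyte marker list summed to 70.7 and 74.6 CPM in the WT libraries, 64.3 and 67.2 for clone 1, and 400 and 432 for clone 2, almost all of it LCP1 (1130 and 1235 counts for WT, 1219 and 1213 for clone 1, 7243 and 6926 for clone 2), while PTPRC had between 1 and 3 counts in every library. ITGB2 overlaps its antisense gene ITGB2-AS1, which had 1 and 2 counts in the WT libraries and between 7 and 12 in those of PCGF6-KO.

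None of the 3 subunits that bind laminin was called by edgeR or DESeq2 in PCGF6-KO as a whole, and 1, ITGA6, had an unadjusted p under 0.05. ITGA6 (chromosome 2, 172427354 to 172506459, forward strand) had 30.3 and 31.3 CPM per kilobase in the WT libraries, 25.3 and 28.7 for clone 1, and 22.1 and 25.2 for clone 2. Every PCGF6-KO library lay below WT, with an edgeR adjusted p of 0.0417, but the size (−0.28 ± 0.09, SE, on the log2 scale) did not reach the threshold. ITGA7, a laminin receptor subunit best known from muscle, had 10.2 and 10.5 in the WT libraries, 9.73 and 8.75 for clone 1, and 5.6 and 5.39 for clone 2 (PCGF6-KO −0.49 ± 0.22, edgeR adjusted p = 0.121). The low values were those of clone 2, and ITGA7 passed as lower without clone 1 replicate 1 (−0.64). ITGA3 gave −0.10 ± 0.14 (edgeR adjusted p = 0.611) and ITGB4, the hemidesmosomal partner of ITGA6, −0.11 ± 0.14 (edgeR adjusted p = 0.573). Of the collagen-binding subunits, ITGA1 (0.55), ITGA2 (−0.10) and ITGA10 (0.45) did not pass, and neither did ITGA4 (0.53) and ITGA9 (0.34), which bind VCAM1, fibronectin splice forms and tenascin. When each library was left out in turn, ITGA1 ranged from 0.39 to 0.73 and passed as higher in 1 of these fits. ITGAE gave 0.02 and ITGAM 0.02, the latter on between 4 and 11 counts.

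Among the laminin alpha chains the make-up differed most for LAMA2, the chain of muscle and nerve basement membranes (chromosome 6, 128883138 to 129516566, forward strand). It had 2.35 and 2.46 CPM per kilobase in the WT libraries, 12.3 and 12.4 for clone 1, and 12.1 and 12.6 for clone 2. It was 5.14-fold higher (log2 fold change 2.36 ± 0.07, SE, edgeR adjusted p = 8.31e-08), and fitted for each clone the difference was again 5.14-fold. LAMA5 (chromosome 20, 62307955 to 62367312, reverse strand) had 15.7 and 15.4 in the WT libraries, 25.9 and 24.4 for clone 1, and 24.6 and 22.7 for clone 2, with no overlap (0.65 ± 0.07, edgeR adjusted p = 0.000105). LAMA4, a chain of vessel walls, had 39 and 47 counts in the WT libraries, 99 and 68 for clone 1, and 84 and 72 for clone 2 (0.79 ± 0.21, edgeR adjusted p = 0.0183), and this call was lost without WT replicate 1 (0.68, edgeR adjusted p = 0.146) or WT replicate 2 (0.91, edgeR adjusted p = 0.0719). The endothelial marker list summed to 201 and 205 CPM in WT and to between 516 and 553 in PCGF6-KO, of which KDR made up most. Of the 7 endothelial markers 2 were higher, KDR (1.68) and ESAM (2 counts in each WT library, between 33 and 92 in those of PCGF6-KO), and 2 were lower, CDH5 (−1.43) and TIE1 (−2.38). Over all tested genes, 14.9% passed as higher and 8.7% as lower. ESAM passed the filter on low counts through the PCGF6-KO libraries. The defining genes PECAM1 and CDH5 had at most 40 counts in any library, and no marker was at 0 in all of them. The part of such cells in the LAMA4 difference was not tested.

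LAMA1 was the only laminin chain whose PCGF6-KO libraries all lay below WT. It had 5.78 and 6.3 CPM per kilobase in the WT libraries, 4.18 and 4.36 for clone 1, and 3.55 and 3.85 for clone 2. Its log2 fold change of −0.60 ± 0.09 (SE, edgeR adjusted p = 0.000911) lay just short of the size threshold, and it passed under RLE normalization (−0.60), upper-quartile normalization (−0.63), DESeq2 (−0.60) and for the mean of the clones (−0.60). LAMA3, a chain of epithelial anchoring laminin, had between 29 and 50 counts in every library and gave 0.11 ± 0.29.

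Of the beta chains, LAMB1 (chromosome 7, 107923799 to 108003213, reverse strand) had 17.9 and 18.6 CPM per kilobase in the WT libraries, 42 and 39.7 for clone 1, and 44.9 and 44.8 for clone 2. It was 2.35-fold higher in PCGF6-KO (log2 fold change 1.23 ± 0.07, SE, edgeR adjusted p = 3.56e-06). LAMB2, the alternative beta chain, had 12.9 and 13.2 in the WT libraries, 15.5 and 14.1 for clone 1, and 11.3 and 10.5 for clone 2, so that the clones lay on opposite sides of WT (−0.02 ± 0.14, edgeR adjusted p = 0.935). LAMB3, a partner of LAMA3 in skin, had 7 and 6 counts in the WT libraries and between 26 and 40 in those of PCGF6-KO (2.20 ± 0.39, edgeR adjusted p = 0.00213). The keratinocyte markers KRT14 and IVL were at 0 in every library, and the list summed to 2.03 and 2.58 CPM in WT and between 3.68 and 5.23 CPM in PCGF6-KO.

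Of the gamma chains, LAMC1, which is part of most laminins (chromosome 1, 183023420 to 183145592, forward strand), had 34 and 36.3 CPM per kilobase in the WT libraries, 62 and 62.2 for clone 1, and 58.5 and 62.3 for clone 2. It was 1.74-fold higher (log2 fold change 0.80 ± 0.06, SE, edgeR adjusted p = 1.6e-05), with no overlap. LAMC3 did not pass (−0.31 ± 0.13, edgeR adjusted p = 0.1). The 3 chains that led their families in WT, LAMA5, LAMB1 and LAMC1, were thus all higher in PCGF6-KO.

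**Figure D2:**
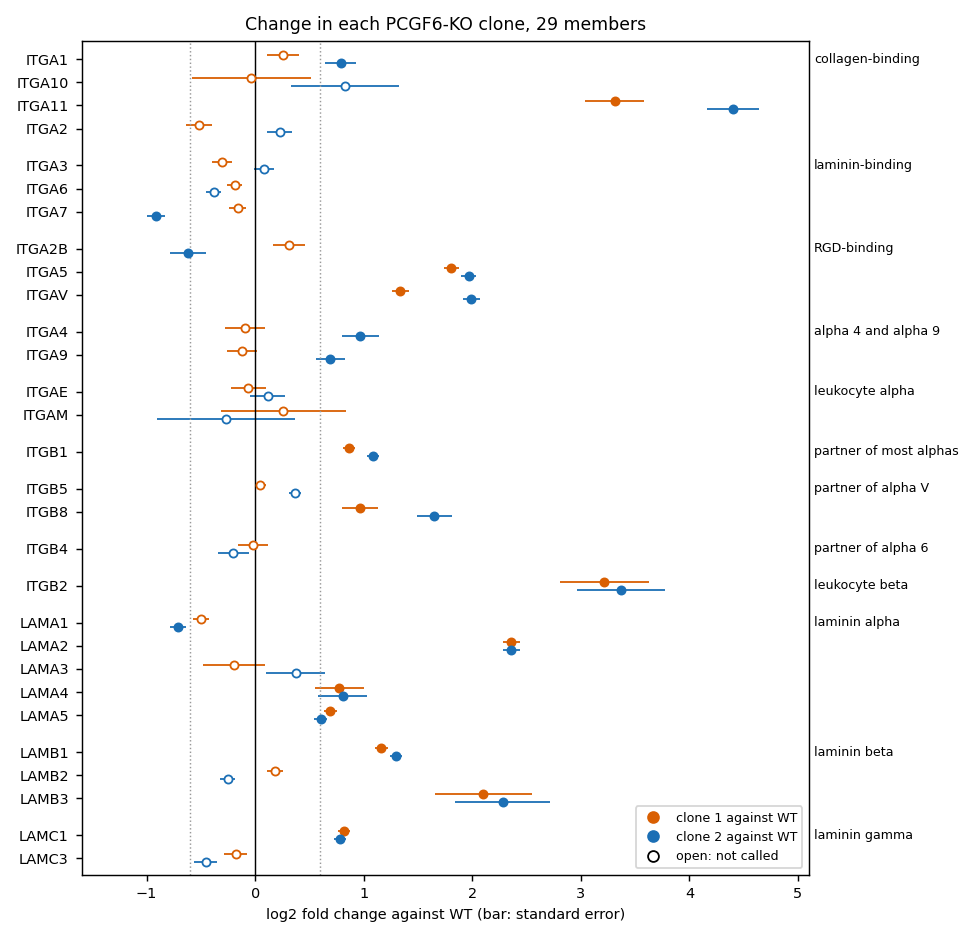
The log2 fold change of clone 1 (orange) and clone 2 (blue) against WT for 29 genes ordered by role, with bars for the standard error, filled points for genes that passed the test, dotted lines at the size threshold of 0.6 and ITGA8 left out because it had 0 counts in WT. ITGA5 (1.81 and 1.97) and LAMA2 (2.36 and 2.36) lie far to the right in both clones, ITGA6 lies left of 0 in both, and ITGA7 and ITGA2B pass as lower in clone 2.

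The make-up of each family moved accordingly. The share of ITGA6 in the summed CPM per kilobase of all alpha subunits averaged 46.1% for WT, 30.1% for clone 1 and 23.5% for clone 2. ITGA5 went from 9.2% to 24.2% and 24.1%, and ITGAV from 12% to 22.6% and 31.9%. In clone 2 ITGAV was the alpha subunit with the highest level, whereas ITGA6 led in WT and in clone 1. The level of ITGA5 relative to ITGA6 was 0.197 and 0.203 in the WT libraries, 0.881 and 0.730 for clone 1, and 1.12 and 0.939 for clone 2. These values are descriptions, since an exact permutation test of 4 against 2 libraries gives at best p = 0.0667.

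The beta subunits and laminin chains shifted within their families too. ITGB1 went from 59.1% of the beta subunits to 71.6% in clone 1 and 70.3% in clone 2, and ITGB5 from 39.6% to 27.3% and 28.6%. LAMA2 went from 9.9% of the laminin alpha chains to 29.2% and 30.7%, and LAMA1 from 24.8% to 10.1% and 9.2%, while LAMA5 stayed first at 63.9%, 59.5% and 58.7%. The level of LAMA2 relative to LAMA1 was 0.406 and 0.390 in the WT libraries, 2.94 and 2.84 for clone 1, and 3.42 and 3.26 for clone 2. LAMB1 went from 58.2% of the beta chains to 73.0% and 79.8%. The summed level of each family was higher in both clones than in WT, by 1.34-fold in clone 1 and 1.5-fold in clone 2 for the alpha subunits, 1.5-fold and 1.79-fold for the beta subunits, and between 1.62-fold and 1.79-fold for the laminin families.

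**Figure D3:**
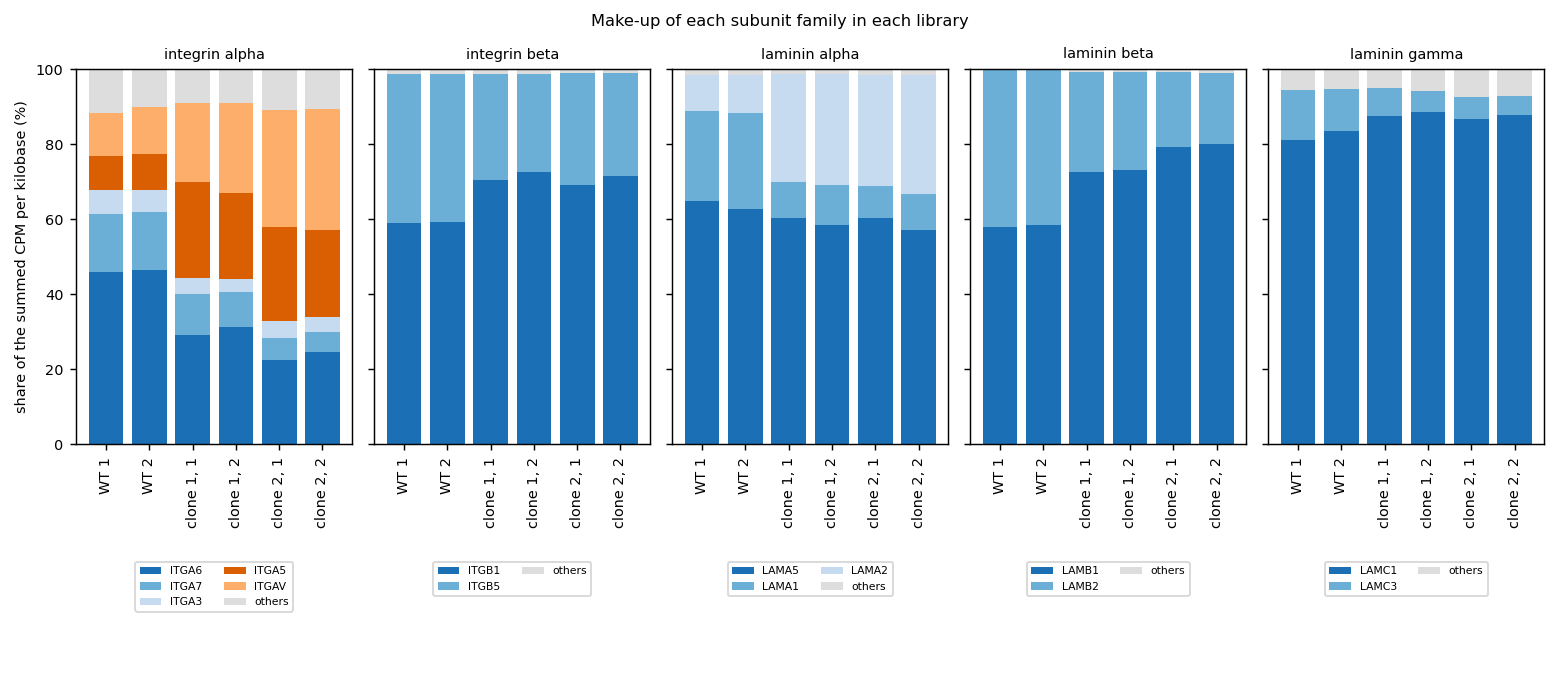
The share of each gene in the summed CPM per kilobase of its family (%), as stacked bars for each of the 6 libraries, with a panel for each family. The ITGA6 part narrows from 46.1% in WT to 23.5% in clone 2 as those of ITGA5 and ITGAV widen, and the LAMA2 part widens from 9.9% to 29.2% in clone 1 and 30.7% in clone 2.

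Each clone was also compared with the same WT libraries in a fit with 3 groups, so the clone comparisons share their controls. In clone 1, 14 of 31 genes were higher and 0 lower by edgeR or DESeq2 (5 at an unadjusted p under 0.05), with a median log2 fold change of 0.26, where 24.8% of all tested genes passed and 8.8% passed as lower. In clone 2, 17 were higher and 3 lower, with a median of 0.78, where 29.4% of all tested genes passed, 16.9% as higher and 12.5% as lower. ITGA1 (0.79 ± 0.14, SE), ITGA4 (0.97 ± 0.17) and ITGA9 (0.69 ± 0.13) passed as higher in clone 2 and were at 0.25, −0.09 and −0.12 in clone 1. ITGA7 (−0.91 ± 0.08), ITGA2B (−0.62 ± 0.17) and LAMA1 (−0.71 ± 0.07) passed as lower in clone 2 and were at −0.16, 0.31 and −0.50 in clone 1. Of these, ITGA2B lost its call without WT replicate 1 (−0.55) or without clone 2 replicate 1 (−0.55), both by size. ITGA1 overlaps the protein-coding gene PELO on the same strand, and ITGA4 overlaps CERKL on the opposite strand. LAMA5 was close to the size threshold in clone 2 (0.60 ± 0.06) and fell short of it under upper-quartile normalization (0.56) and without WT replicate 2 (0.59) or clone 2 replicate 1 (0.55). LAMA4 did not pass in either clone with DESeq2 (adjusted p = 0.0835 and 0.0629), nor in clone 1 without WT replicate 1 (edgeR adjusted p = 0.0594) or clone 1 replicate 1 (edgeR adjusted p = 0.132).

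The clones themselves differed in integrins. In the test of clone 2 against clone 1, 6 of the 31 genes were higher in clone 2, 2 were lower and 23 did not pass, where 7.87% of all tested genes passed. All 8 were integrins (8 of 20), and 0 of 11 laminins passed by edgeR or DESeq2 (6 at an unadjusted p under 0.05), while LAMB2 had an adjusted p under 0.05 at a smaller size. Higher in clone 2 were ITGA11 (log2 fold change 1.09 ± 0.15, SE), ITGA4 (1.06 ± 0.17), ITGA9 (0.81 ± 0.13), ITGA2 (0.74 ± 0.12), ITGB8 (0.68 ± 0.14) and ITGAV (0.65 ± 0.07). Lower in clone 2 were ITGA2B (−0.93 ± 0.16) and ITGA7 (−0.75 ± 0.08). ITGA4 had 106 and 96 counts in the WT libraries, 88 and 126 for clone 1, and 232 and 179 for clone 2, so clone 1 overlapped WT and clone 2 lay above both. ITGA9 had 148 and 141 in the WT libraries, 160 and 141 for clone 1, and 257 and 227 for clone 2, with clone 2 above the others. Scaled to CPM, clone 1 (8.37 and 7.76) lay below WT (9.09 and 8.45). ITGA2 had 285 and 266 in the WT libraries, 210 and 225 for clone 1, and 341 and 326 for clone 2, with clone 1 below WT and clone 2 above it. For ITGAV and ITGB8 the call rested on size: ITGAV gave 0.53 without clone 1 replicate 1 and 0.59 without clone 2 replicate 2, and ITGB8 gave 0.47 without clone 1 replicate 1.

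**Figure D4:**
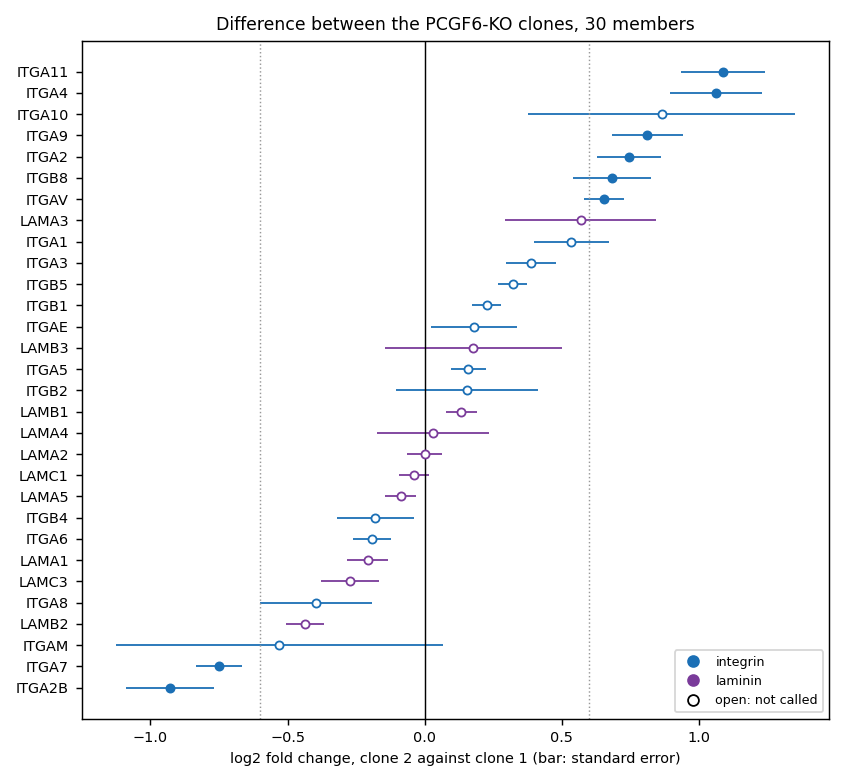
The log2 fold change of clone 2 against clone 1 for 30 genes, with bars for the standard error, integrins in blue, laminins in purple and filled points for genes that passed the test. The 8 filled points are integrins, from ITGA11 at 1.09 down to ITGA2B at −0.93, and LAMA2, LAMC1 and LAMA5 lie near 0.

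Inside the cell, integrins act through adaptors that couple them to actin. A list of 40 genes of this adhesion machinery, of which 39 were tested, had 14 genes higher in PCGF6-KO, 0 lower by edgeR or DESeq2 (PTK2, TNS2 and ENAH at an unadjusted p under 0.05) and 25 that did not pass, where 23.6% of all tested genes passed and 14.9% passed as higher, with a median log2 fold change of 0.47. LIMS2, an adaptor of the integrin-linked kinase complex, had 43 and 48 counts in the WT libraries, 353 and 340 for clone 1, and 392 and 281 for clone 2 (log2 fold change 2.79 ± 0.15, SE, edgeR adjusted p = 2.29e-06). TGFB1I1, a paxillin relative, had 86 and 94 in WT and between 343 and 434 in PCGF6-KO (1.96 ± 0.13, edgeR adjusted p = 7.23e-06). TNS4, a tensin that binds beta subunit tails, had 23 and 15 in WT and between 50 and 124 in PCGF6-KO (2.05 ± 0.43, edgeR adjusted p = 0.00528). The TNS4 call was lost without WT replicate 2 (1.76, edgeR adjusted p = 0.0653).

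The list of 37 other matrix proteins and integrin ligands, of which 32 were tested, had 18 genes higher, 4 lower and 10 that did not pass, where 14.9% of all tested genes passed as higher and 8.7% as lower, with a median log2 fold change of 0.87. TNC, tenascin-C, had 230 and 260 counts in the WT libraries, 9809 and 9267 for clone 1, and 7485 and 6417 for clone 2 (4.95 ± 0.16, SE, edgeR adjusted p = 1.19e-07). SPP1, the RGD ligand osteopontin, had 750 and 739 in WT and between 10938 and 17523 in PCGF6-KO (4.14 ± 0.25, edgeR adjusted p = 3.86e-06). NID2, a nidogen that links laminin to collagen IV, had 269 and 278 in the WT libraries, 1512 and 1455 for clone 1, and 2973 and 2529 for clone 2 (2.86 ± 0.36, edgeR adjusted p = 0.000339). FN1, fibronectin, the ligand of the ITGA5 receptor, was picked after its values were seen and had 5078 and 5575 in the WT libraries, 27700 and 26022 for clone 1, and 37468 and 32967 for clone 2 (2.44 ± 0.18, edgeR adjusted p = 1.37e-05). In each of these 4 genes all PCGF6-KO libraries lay above WT.

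The 4 genes that were lower included MFGE8, an RGD ligand of ITGAV receptors, with 10051 and 9982 counts in the WT libraries, 2511 and 2246 for clone 1, and 2196 and 2018 for clone 2 (−2.28 ± 0.06, SE, edgeR adjusted p = 5.25e-08). FREM2, a basement membrane protein of the Fraser complex, had 1446 and 1559 in WT and between 701 and 894 in PCGF6-KO (−1.03 ± 0.08, edgeR adjusted p = 1.38e-05). BCAM, a receptor for LAMA5, had 3478 and 3428 in the WT libraries, 3182 and 2588 for clone 1, and 2045 and 1697 for clone 2 (−0.67 ± 0.16, edgeR adjusted p = 0.0102). The BCAM call was lost without either WT library or either clone 2 library, with log2 fold changes between −0.79 and −0.57. The fourth was FRAS1 (−0.61), the partner of FREM2, named because the count is small. VTN, vitronectin, had 1 and 0 counts in the WT libraries and between 12 and 47 in those of PCGF6-KO, and no fold is given on such counts.

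**Figure D5:**
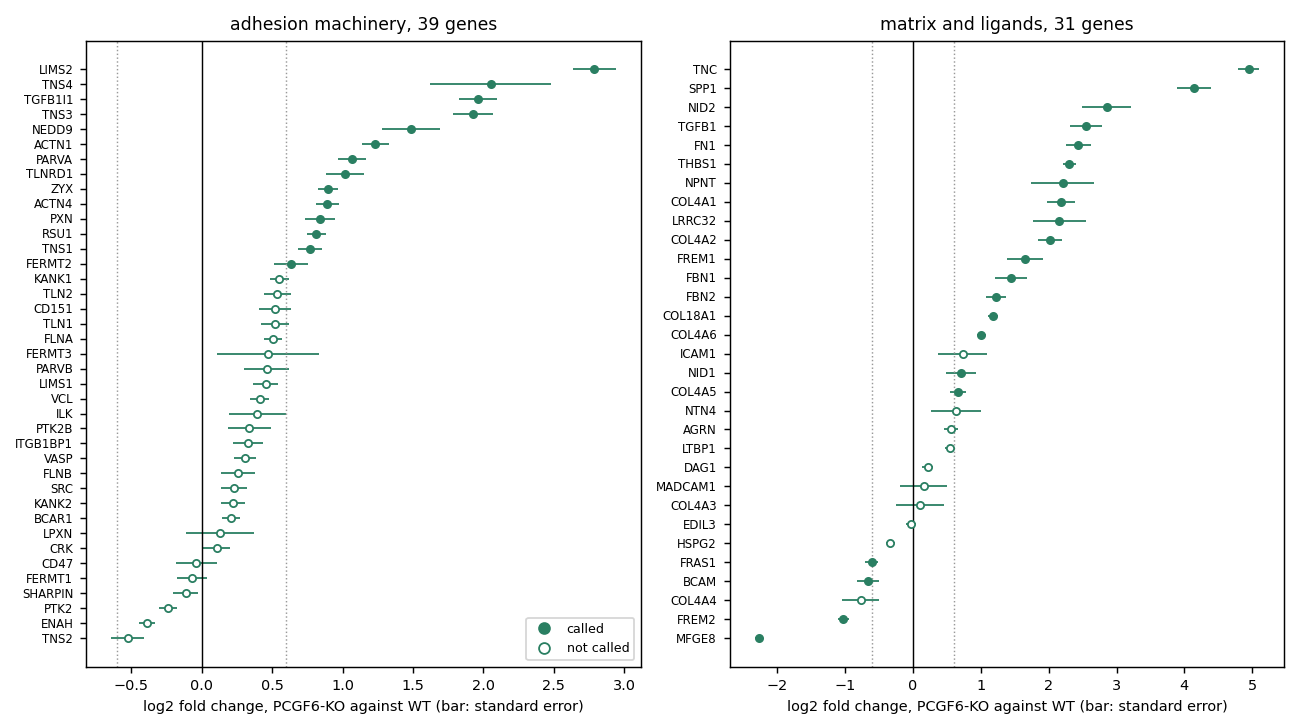
The log2 fold change in PCGF6-KO relative to WT for 39 adhesion machinery genes (left) and 31 matrix and ligand genes (right), with bars for the standard error, filled points for genes that passed, dotted lines at 0.6 and VTN left out for its low WT counts. No filled point lies left of 0 on the left, and on the right TNC (4.95) and SPP1 (4.14) lie at the upper end and MFGE8 (−2.28) at the lower.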

How the data were processed

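RNA-seq counts of 6 libraries were used. ChIP-seq was not analysed here. The values of 1 gene are counted in the totals and not reported here. The authors used Trim_galore (v0.6.2) for trimming, HISAT2 (v2.1.0) for alignment to GRCh38 and featureCounts for counting, and deposited raw counts with gene lengths. Strand setting, annotation release and the treatment of reads with several alignments are not given in the sources used here. The filterByExpr step of edgeR (minimum 10 counts) left 17672 genes, TMM factors scaled the libraries, and glmQLFit and glmQLFTest (edgeR 4.0.16, limma 3.58.1, R 4.3.3) compared the 4 PCGF6-KO with the 2 WT libraries, and the clones in a 3-group fit, with Benjamini-Hochberg adjustment over all tested genes. Calls needed an adjusted p under 0.05 and a log2 fold change over 0.6 in size, after the study's methods. SE is the log2 fold change divided by the square root of F. CPM per kilobase is TMM-scaled CPM over the deposited gene length. The common biological coefficient of variation was 0.120, and library depth was 15877396 to 18918609 counts. The tests were checked on simulated counts in which changed genes had 1 large fixed fold and all genes shared 1 spread. In the simulation of PCGF6-KO against WT the clones did not differ. This check therefore does not cover smaller changes, genes near absence in WT or genes on which the clones differ.

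The genes named are every called integrin or laminin gene averaging at least 0 log2 CPM, the highest of each family in WT, and of each further list the 3 largest increases and 3 largest decreases among called genes averaging at least 1 log2 CPM. The genes, lists and rules were chosen with earlier results of these data known, and CTTTGA and GGGCGG were added as motifs after the data were seen. Positions and overlaps were taken from GENCODE release 44 by symbol (38 of 38 matched). Promoters came from RefSeq (GRCh38.p14). Python 3.11.15, pandas 2.3.3 and matplotlib 3.10.9 were used. The alternatives tried were RLE normalization, upper-quartile normalization, DESeq2 (1.42.0), omission of the filter, a minimum of 10 counts in all libraries, adjusted p alone, an unadjusted p under 0.05 with a fold over 1.5, the mean of the clones, the replicate block and leaving out each library.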

Additional observations from a re-analysis of the deposited data

Results flagged for a closer look

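The log2 fold change of clone 2 against clone 1 had an adjusted p under 0.05 (edgeR's quasi-likelihood test, 3-group fit) in the integrin and laminin genes given here. Each clone is 1 edited line with 2 libraries, so the edit and variation between lines cannot be told apart in these differences. It was positive for ITGA11 (1.087), ITGA4 (1.061), ITGA9 (0.811), ITGA2 (0.743), ITGB8 (0.683), ITGAV (0.655), ITGA1 (0.534), ITGA3 (0.387), ITGB5 (0.320) and ITGB1 (0.226). It was negative for ITGA2B (−0.928), ITGA7 (−0.750) and LAMB2 (−0.437). Of these, ITGA1, ITGA3, ITGB5, ITGB1 and LAMB2 did not also pass the size threshold.

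Among the 4 PCGF6-KO libraries, 1 library stood apart in ITGA10, where the gap took 0.874 of the range, and in LAMC1, where it took 0.927 of the range. Chance flags about 1 in 20 groups of this size, and 31 genes were examined. The ITGA10 value rests on 23 counts in the highest library and between 10 and 12 in the others, and the low LAMC1 value was 58.5 CPM per kilobase against between 62 and 62.3.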

How the results depend on the processing

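Fold changes of single genes in PCGF6-KO against WT were followed under the other normalizations, filters, thresholds and tools. Of these values, 351 kept their direction and side of the threshold, 8 newly passed, 0 ceased to pass and 4 changed sign. The 4 were all near 0: ITGAE (−0.0082) and ITGAM (−0.0073) under upper-quartile normalization, ITGAM for the mean of the clones (−0.0064) and LAMB2 where all libraries had to reach 10 counts (0.0018). With an adjusted p under 0.05 alone, clone 2 against clone 1 gave 14 genes, where 3442 of all 17672 tested genes passed. The adhesion machinery gave 27 in PCGF6-KO against WT under the same rule, where 6556 of all 17672 passed. Without the filter the median over all genes was 0.10. Leaving out each library gave between 13 and 17 integrin and laminin genes for PCGF6-KO against WT, 13 and 14 for clone 1, 19 and 20 for clone 2, 6 and 9 between the clones, 13 and 14 for the adhesion machinery and 17 and 22 for the matrix list. It turned the sign of uncalled genes only: ITGA2 (−0.25 to 0.043), ITGA10 (−0.0065 to 1.13), ITGA2B (−0.23 to 0.088), ITGAE (−0.15 to 0.22), ITGAM (−0.50 to 0.83) and LAMB2 (−0.11 to 0.068). Of the 14 genes called in PCGF6-KO against WT, LAMA4 alone lost its call in a setting that tested it. With the replicate number as a block, 14 genes were called for PCGF6-KO against WT, 14 for clone 1, 20 for clone 2 and 8 between the clones, and 3876 against 4167 over all genes. The numbers were not taken to pair the libraries, since replicate differences correlated at 0.042 (clone 1 with WT), 0.053 (clone 2 with WT) and 0.162 (clone 1 with clone 2) by Pearson's r. By Spearman's rho they correlated at 0.116, 0.110 and 0.232, so the choice rests on the measure used. In single clones, LAMA5 ceased to pass in clone 2 under upper-quartile normalization (0.56) and LAMA4 in both clones with DESeq2. With 2 WT libraries, genes under 10 counts in WT are least certain.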
